A study of Mus musculus with 16 samples.

Results

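The choroidal endothelium marker genes were followed through RNA sequencing of the mouse retinal pigment epithelium (RPE), a pigmented epithelium between the photoreceptors and the choroid. They are 10 genes chosen by symbol (Pecam1, Cdh5, Cldn5, Plvap, Esam, Emcn, Vwf, Egfl7, Erg and Tie1), out of 51912 genes in the count table, and all 10 had counts in every library. The study crossed loss of SUCNR1, the receptor for extracellular succinate, with exposure to the oxidant hydroquinone. All mice were C57BL/6 males of 40 weeks. The 4 groups were wild-type mice without hydroquinone (4 libraries from 2 mice), wild-type mice given hydroquinone (4 libraries, 4 mice), SUCNR1 knockout mice without hydroquinone (4 libraries, 3 mice) and SUCNR1 knockout mice given hydroquinone (4 libraries, 4 mice). Each library came from 1 eye. The titles name 13 mice, of which 3 gave both eyes, whereas the labels' protocol speaks of 4 animals a group. The titles were followed here. Per that protocol the retina was peeled away and the RPE was then lifted with forceps from the choroid beneath it, so vessels were not the intended tissue. The labels give no dose or duration for hydroquinone, no further detail of the knockout allele, and do not say whether both genotypes came from the same litters.

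The choroid is the vascular bed that feeds the outer retina. Its capillary layer, the choriocapillaris, lies directly against the RPE across Bruch's membrane, and its endothelial cells have fenestrations, small pores closed by a diaphragm, through which nutrients leave the blood. Endothelial cells also line the vessels of the neural retina, but those are sealed by tight junctions and lack fenestrations. RPE cells are epithelial, and the genes followed here are in common use as endothelial markers. In bulk tissue fewer endothelial cells and less RNA per endothelial cell cannot be told apart.

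The members cover several endothelial functions, and their positions are those of GENCODE vM21 on GRCm38. Pecam1 (ENSMUSG00000020717, chr11:106654217-106750628, minus strand) encodes the adhesion molecule CD31 of endothelial cell contacts. Cdh5 (ENSMUSG00000031871, chr8:104101625-104144511, plus strand) encodes VE-cadherin, the adherens junction cadherin of endothelium. Cldn5 (ENSMUSG00000041378, chr16:18776847-18778262, plus strand) encodes the main claudin of endothelial tight junctions. Esam (ENSMUSG00000001946, chr9:37528078-37538319, plus strand) encodes another tight junction adhesion molecule. Plvap (ENSMUSG00000034845, chr8:71497765-71511752, minus strand) encodes the protein of the fenestral diaphragm. Emcn (ENSMUSG00000054690, chr3:137341067-137432185, plus strand) encodes endomucin, a sialomucin of capillary and venous endothelium. Vwf (ENSMUSG00000001930, chr6:125546774-125686679, plus strand) encodes von Willebrand factor, which platelets bind. Egfl7 (ENSMUSG00000026921, chr2:26580014-26593120, plus strand) encodes a secreted endothelial protein. Tie1 (ENSMUSG00000033191, chr4:118471191-118490061, minus strand) encodes a receptor tyrosine kinase that acts with the angiopoietin receptor. Erg (ENSMUSG00000040732, chr16:95359169-95586593, minus strand) encodes a transcription factor of the ETS family that maintains endothelial identity. Exons of Egfl7 overlap those of Gm20532, Mir126a, Mir126b and, on the other strand, Agpat2. Agpat2 had 10535 counts in all against 8638 for Egfl7, and since no strand setting of the counting is given, the Egfl7 counts are uncertain.

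Because Erg is itself an ETS factor, the promoter sequences that RefSeq gives for the members were read for the ETS core CNGGAAG on either strand. The RefSeq table (GRCm38.p6) held 9 windows for 5 of the 10 members (Egfl7, Emcn, Tie1, Cldn5 and Erg), each of 300 bases, 250 before and 50 after an annotated start. The ETS core was in 5 of the 9 windows, from 4 genes, and in 31.89% of the 32851 windows of that length in the table. The GATA core AGATAA, which overlapped none of these matches, was in 1 member window, an Erg window, and in 11.18% of all windows. The upstream stretches of 4 windows are shown because they hold the ETS core (the first 3) or come from a marker without it (Cldn5). They lie at chr2:26580833-26581055 (plus strand, Egfl7), chr3:137340828-137341066 (plus, Emcn), chr16:95459349-95459598 (minus, an inner start of Erg) and chr16:18776597-18776846 (plus, Cldn5). Capitals mark the ETS core, read as written or as its reverse complement:
Egfl7: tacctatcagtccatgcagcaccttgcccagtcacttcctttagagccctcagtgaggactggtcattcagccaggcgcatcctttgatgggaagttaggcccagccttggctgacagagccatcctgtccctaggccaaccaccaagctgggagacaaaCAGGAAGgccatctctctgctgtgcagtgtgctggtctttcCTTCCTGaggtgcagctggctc
Emcn: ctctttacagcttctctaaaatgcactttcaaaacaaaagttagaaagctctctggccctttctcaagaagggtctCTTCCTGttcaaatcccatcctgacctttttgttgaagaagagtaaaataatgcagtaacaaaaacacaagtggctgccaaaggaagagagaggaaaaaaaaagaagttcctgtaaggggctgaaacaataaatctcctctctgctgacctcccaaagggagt
Erg: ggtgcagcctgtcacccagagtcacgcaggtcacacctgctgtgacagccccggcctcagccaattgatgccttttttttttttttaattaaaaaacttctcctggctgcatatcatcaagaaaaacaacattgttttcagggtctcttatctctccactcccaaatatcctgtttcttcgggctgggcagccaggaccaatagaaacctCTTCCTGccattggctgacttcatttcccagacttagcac
Cldn5: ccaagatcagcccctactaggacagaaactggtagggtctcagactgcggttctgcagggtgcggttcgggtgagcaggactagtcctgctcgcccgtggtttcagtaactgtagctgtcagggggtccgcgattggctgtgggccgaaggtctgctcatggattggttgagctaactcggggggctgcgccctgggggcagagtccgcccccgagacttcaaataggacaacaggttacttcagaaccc
A match describes these letters only and says nothing of whether a factor binds there.

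Sequencing depth was ample for these genes. Library totals ran from 21113549 to 35332444 counts, and the members had 207 to 3682 counts per library. Counting error alone gives a coefficient of variation of 2.23% (Plvap) to 4.93% (Erg), and the intervals behind such errors cover counting only. Identifiers of the libraries in the labels come without a letter (9 libraries) or with one (7 libraries), a difference the labels do not explain. Values within each form are given for some results. RPE markers were abundant as a sum in every library (10 genes, summed 20267 to 31649 CPM, counts scaled to a library of 1000000). Single genes among them averaged from 2.08 CPM (Best1) to 8716 CPM (Ttr). Genes of other tissues were present as well: 14 rod photoreceptor genes summed to between 258.8 and 24723 CPM, and 5 corneal epithelium genes to between 2235 and 25053 CPM. Sucnr1 itself could not check the genotype labels, since it had 29 counts over the 8 wild-type libraries, with 4 of them at 0, and 4 counts over the 8 knockout libraries, with 6 at 0.

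All 10 endothelial markers were expressed in the RPE preparations. Summed over the 10 genes, the libraries held 178.4 to 576 CPM, with 381.7 ± 90.3 CPM in untreated wild type, 377.4 ± 146.8 in treated wild type, 349.8 ± 109.6 in untreated knockout and 442.5 ± 105.6 in treated knockout (SD, n = 4 libraries each). Levels between genes are compared only after division by exonic length, the union of all annotated exons of a gene. On that scale Plvap, the diaphragm gene of fenestrated vessels, stood first with 41.8 ± 11.6 CPM per kb (SD, n = 16 libraries). Cldn5 followed with 21.6 ± 5.74 CPM per kb, and the ranges of 1 SD around the 2 means did not meet. The other 8 genes lay between 4.44 ± 1.73 (Vwf) and 8.39 ± 2.43 CPM per kb (Cdh5), in the order Cdh5, Tie1, Emcn, Pecam1, Esam, Egfl7, Erg and Vwf. Within that order each gene differed from the next by less than 1 SD. The union of exons can exceed the length of any single transcript, so the order may depend on this measure. Vwf, the last, had the longest union, 16064 bases.

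The ratio of Plvap to Cldn5, a diaphragm gene against a tight junction gene, was 2.64 ± 0.481 in untreated wild type, 2.73 ± 0.513 in treated wild type, 2.84 ± 0.491 in untreated knockout and 2.71 ± 0.598 in treated knockout (SD, n = 4 libraries each, of CPM values). The group means of this ratio lay closer together than the SD within any group, while single libraries ran from 1.94 to 3.58. As a check of the choroidal label, genes of particular vessel types were read as well. Car4, the carbonic anhydrase gene that marks choriocapillaris, was low at 1.48 ± 0.598 CPM (SD, n = 16 libraries), and with Rgcc and Esm1 summed to 7.7 to 22.5 CPM. Mfsd2a, a lipid transporter of sealed retinal vessels that RPE cells express too, was at 21.7 ± 5.51 CPM. The 6 barrier endothelium genes summed to 327.1 to 590.9 CPM, of which the RPE-expressed transporter gene Slco1a4 made up 190 ± 44.7 CPM. Slco1c1 made up a further 129 ± 24.9 CPM and Spock2 58.1 ± 31.7 CPM. Whether the RNA of these genes came from vessels or from other cells was not tested. Plvap marks fenestrated vessels, but these levels do not say what share of the endothelial RNA came from choroid and what share from retina.

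Library by library, the junction gene Pecam1 read 29.5, 41.6, 41.7 and 31.7 CPM in untreated wild type (replicates 1 to 4) and 22.9, 33.6, 43.3 and 53.3 CPM in treated wild type. In the knockout it read 41.8, 55.8, 19.3 and 25.2 CPM untreated and 43.7, 31.0, 37.0 and 48.7 CPM with hydroquinone. The untreated knockout group held both the lowest of the 16 values (replicate 3) and the highest (replicate 2).

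Vwf, the most variable member, read 60.1, 69.3, 102 and 60.5 CPM in untreated wild type, then 25.3, 52.7, 104 and 77.8 CPM in treated wild type. In untreated knockout it read 73.5, 93.9, 38.4 and 46.5 CPM, and with hydroquinone 64.2, 48.1, 93.4 and 131 CPM. The lowest Vwf value was wild-type hydroquinone replicate 1 and the highest knockout hydroquinone replicate 4, a ratio of 5.16, and every group overlapped every other.

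Tie1, the receptor, read 28.0, 37.6, 44.7 and 33.2 CPM in untreated wild type and 16.5, 36.5, 55.6 and 40.6 CPM with hydroquinone. Knockout libraries read 33.9, 48.0, 25.2 and 24.8 CPM untreated and 38.9, 33.0, 44.1 and 56.4 CPM with hydroquinone. Its lowest and highest libraries were those of Vwf.

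Plvap read 54.5, 76.3, 102 and 80.8 CPM in untreated wild type and 34.3, 92.2, 116 and 89.3 CPM in treated wild type. Its knockout values were 85.2, 87.3, 57.6 and 64.6 CPM untreated and 82.0, 75.3, 119 and 112 CPM with hydroquinone. Erg, the transcription factor, read 11.5, 16.4, 17.9 and 13.2 CPM in untreated wild type, 12.0, 14.4, 23.4 and 21.7 CPM in treated wild type, 17.1, 21.2, 9.76 and 11.1 CPM in untreated knockout and 13.01, 17.3, 18.5 and 25.7 CPM in treated knockout. For Erg the lowest library was untreated knockout replicate 3, and wild-type hydroquinone replicate 1 was the fourth lowest.

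The other 5 members are given by their range. Cdh5 ran from 18.3 to 54.2 CPM (median 34.3), Cldn5 from 15.2 to 48.7 (median 30.6), Esam from 7.4 to 23.2 (median 17.3), Emcn from 13.8 to 62.0 (median 38.3) and Egfl7 from 12.7 to 26.5 CPM (median 20.7). Wild-type hydroquinone replicate 1 was the lowest of 16 libraries for 8 of 10 members, all but Pecam1 and Erg, and knockout hydroquinone replicate 4 was the highest for 6 of 10. Cdh5 and Emcn were highest in untreated wild-type replicate 3. In no pair of groups compared (4 comparisons of 2 groups) did any of the 10 members separate the groups without overlap. Of all 15380 tested genes, the libraries did so for 2.91% between the wild-type groups, 1.91% between the knockout groups, 1.05% between the untreated groups and 2.33% between the treated groups. The coefficient of variation over the 16 libraries ran from 19.1% (Egfl7) to 39.0% (Vwf), above the counting error of each gene.

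**Figure D1:**
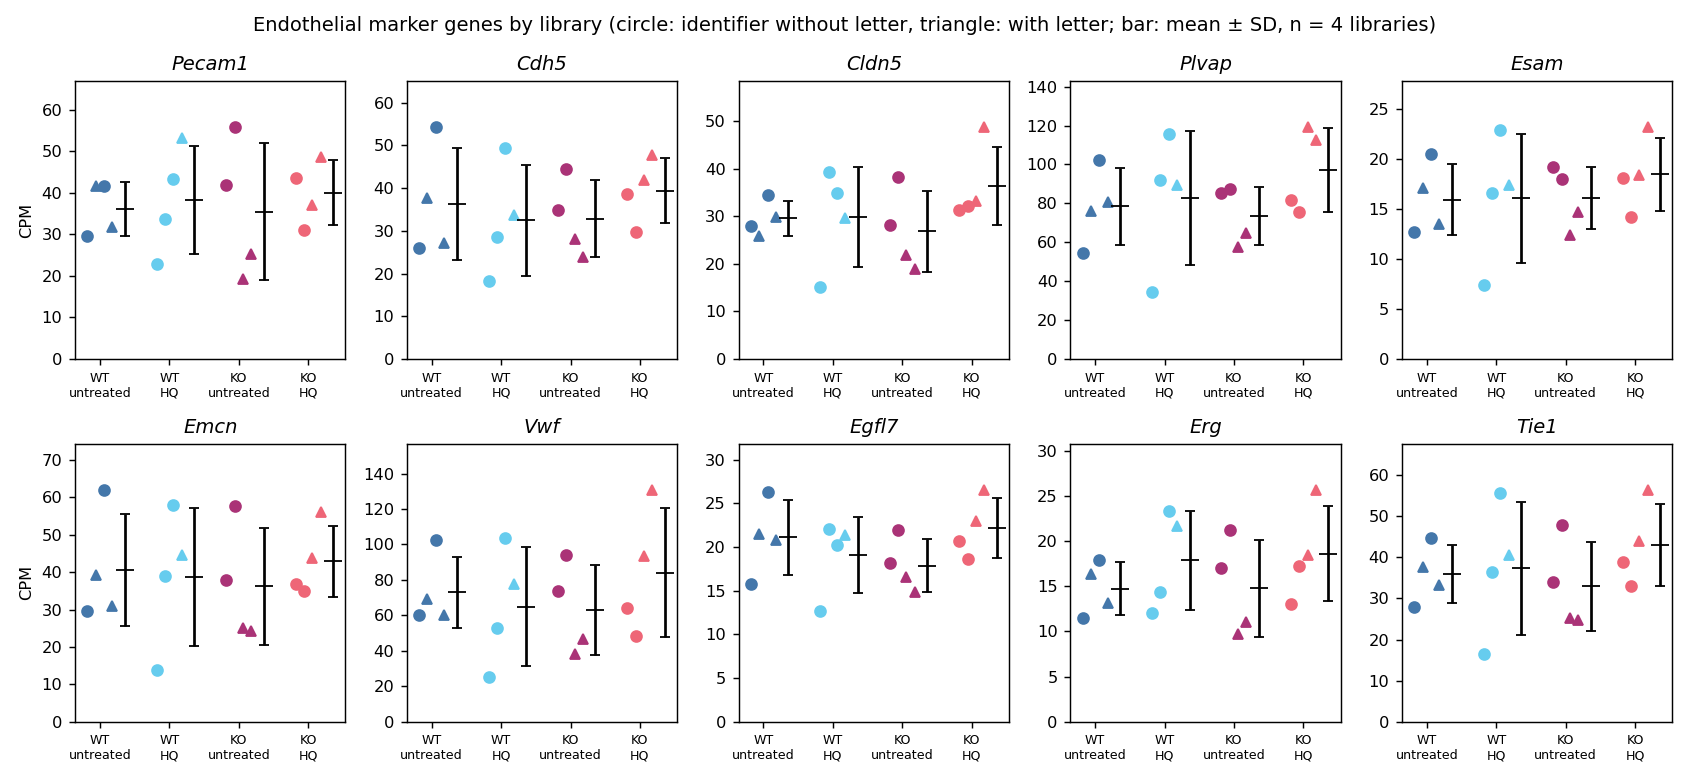
CPM (y axis, linear from 0) of the 10 endothelial marker genes in the 4 groups (x axis; WT, wild type; KO, SUCNR1 knockout; HQ, hydroquinone). Each point is 1 library, circles stand for identifiers without a letter and triangles for those with one, and bars give the mean ± SD of 4 libraries; the groups overlap for all 10 genes.

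The first question put to the members was whether they rise and fall together from mouse to mouse, as RNA from a shared tissue fragment such as carried-over choroid would. They rose and fell together. Over 13 mice, with the eyes of a mouse averaged and levels as log2(CPM + 1), all 45 pairs of members were positively correlated, with a median Pearson r of 0.86 (0.68 to 0.98) and a median Spearman rho of 0.81 (0.59 to 0.96). Every pair passed for both measures after adjustment over the 45 pairs (largest adjusted permutation p = 0.006 for r and 0.0381 for rho). For scale, r over all 118264510 pairs of tested genes had a median of -0.01, with 4.8% of pairs above the lowest member r and 0.65% above the median member r. The members share libraries, dissection and scaling, and they were chosen as markers of 1 cell type. Whether other cells added to their counts was not tested. RNA carried over from choroid and a change in what endothelial cells express cannot be told apart from these levels.

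The closest pair was Emcn, the sialomucin, and Tie1, the receptor (r = 0.98, rho = 0.96, permutation p = 1.0e-05 for each, the smallest that 100000 permutations can give, adjusted p = 5.0e-05 and 1.9e-04). The loosest by r was Esam and Erg (r = 0.68, permutation p = 0.00386, adjusted p = 0.00404; rho = 0.74, adjusted p = 0.00741), and the loosest by rho was Pecam1 and Plvap (r = 0.70, adjusted permutation p = 0.00555; rho = 0.59, adjusted p = 0.0381). Tie1 had the highest median r with the other 9 members, 0.94, and Erg the lowest, 0.77. The first principal component of the 10 genes held 89.3% of their variance over the mice.

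**Figure D2:**
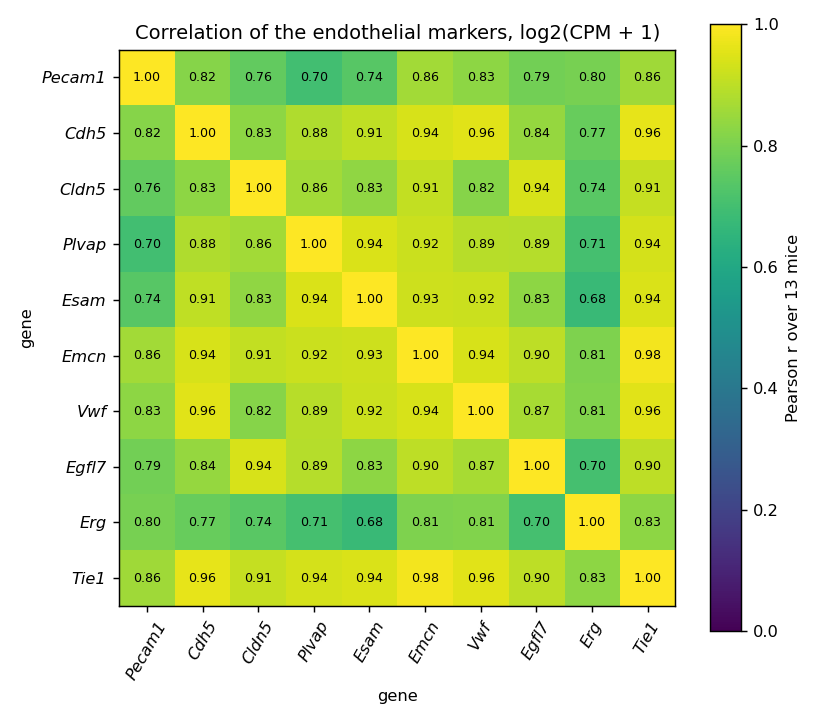
Pearson r over 13 mice (colour and number in each cell, scale from 0 to 1) of log2(CPM + 1) between each pair of the 10 endothelial marker genes, listed on both axes. All 45 pairs are positive, from 0.68 (Esam and Erg) to 0.98 (Emcn and Tie1), and the rows of Erg and Pecam1 have the lowest medians, 0.77 and 0.80.

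The common movement was as strong within the groups: with group means removed the median r was 0.87 (0.69 to 0.99). Without the 2 mice farthest from the median of the first gene of each pair it was 0.76 (0.52 to 0.96). Within libraries without a letter it was 0.87 (9 mice) and within those with a letter 0.90 (7 mice). Relative to the mean of the RPE markers of the same library it was 0.83. Leaving out the mouse of wild-type hydroquinone replicate 1, the lowest library, gave the smallest median, 0.81, and leaving out the mouse of wild-type hydroquinone replicate 2 the largest, 0.91.

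In the plot of the members against the ordered libraries the mean log2(CPM + 1) of the 10 genes rises from 4.13 in wild-type hydroquinone replicate 1 to 5.65 in knockout hydroquinone replicate 4. Their SD over libraries had a median of 0.42 on the log2 scale, from 0.28 (Egfl7) to 0.59 (Vwf), against a median of 0.27 over all 15380 tested genes, of which 23.7% exceeded the members' median. After the mean of the members in each library was taken away, Tie1 kept an SD of 0.08 and Vwf one of 0.23. Erg stood 0.56 above the common profile in wild-type hydroquinone replicate 1, the largest departure of any member in any library, and Emcn stood 0.43 below it there.

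**Figure D3:**
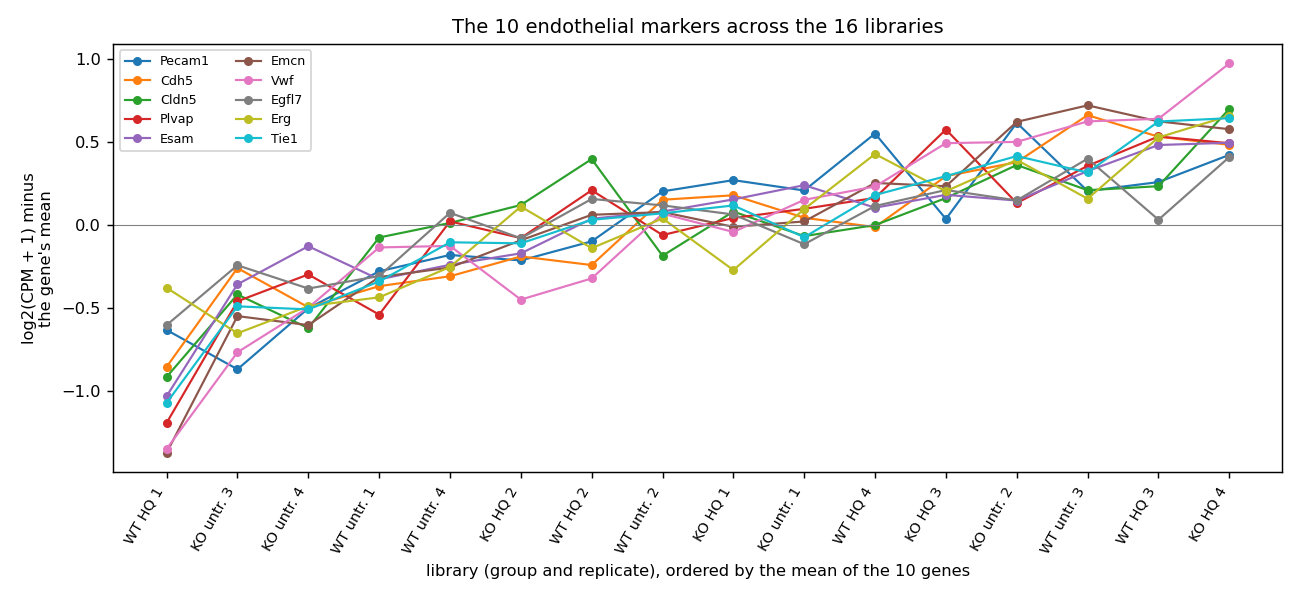
Level of each endothelial marker gene as log2(CPM + 1) minus that gene's mean (y axis) in the 16 libraries (x axis), ordered by the mean of the 10 genes; each line is 1 gene. The lines climb together from wild-type hydroquinone replicate 1 to knockout hydroquinone replicate 4, and libraries of all 4 groups are interleaved along the axis.

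Eyes of the same mouse differed by about 1 SD of all libraries. In the wild-type untreated mouse with replicates 1 and 2, 9 of 10 members were higher in replicate 2, all but Cldn5, with a median difference of 0.42 on the log2(CPM + 1) scale. In the other untreated wild-type mouse, all 10 were higher in replicate 3 than in replicate 4 (median difference 0.42). In the untreated knockout mouse that gave both eyes, all 10 were higher in replicate 1 than in replicate 3 (median difference 0.56). The members' mean differed between the eyes by 0.37, 0.53 and 0.57, beside an SD of 0.40 over all 16 libraries. Genotype, treatment and animal are the same within each of these pairs. The 2 eyes of each pair also differ in identifier form, so the eye, its preparation and the form cannot be told apart here.

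Most other pan-endothelial genes moved with the members, and the lists of particular vessel types did so less. Of 25 further pan-endothelial genes, 23 had a median r above 0.5 with the 10 members over the 13 mice, and the median over all gene pairs was 0.80. The exceptions were Sox7 and Gpihbp1. Sox7, a transcription factor gene, was at 9.04 ± 3.33 CPM (median r -0.34). Gpihbp1, the lipoprotein lipase carrier of capillaries, was at 2.03 ± 1.1 CPM (median r -0.51). Arterial genes had a median r of 0.62 (4 of 5 above 0.5, among them Sema3g), choriocapillaris genes 0.42, barrier genes 0.38 and venous genes 0.32.

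Ranked by r with the members' mean over the 16 libraries after group means were removed, the 6 genes nearest to the members out of 15370 others were Robo4 (0.97), Eng (0.97), Clec14a (0.97), Ptprb (0.96), Tek (0.95) and Sema3g (0.95). Over those 15370 genes the median of this r was -0.06, and 28 genes (0.182%) exceeded 0.9, 9 of them from the pan-endothelial list. These values are descriptions, since the libraries, their depth and the dissection are shared by all genes.

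Fibroblast genes came next, and the tissue their RNA came from was not tested. The 8 fibroblast genes had a median r of 0.68 with the members, and 6 of 8 were above 0.5, including the collagen gene Col1a2 (0.80, 389 ± 131 CPM) and the proteoglycan gene Lum (0.82, 143 ± 45.6 CPM). Dpt (-0.27) and Mfap5 (-0.20) went the other way. Of the 11 mural cell genes (10 of them above the 1 CPM filter), which mark pericytes and smooth muscle around vessels, 4 were above 0.5, led by Abcc9 (0.78) and Pdgfrb (0.75), whereas Notch3 was at -0.39. The median of the mural list was 0.37, that of the macrophage list 0.40, that of the mast cell list 0.18 and that of the melanocyte list, pigment cells of the choroid, 0.14.

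Several of these medians differed between the identifier forms, a difference that was not tested. For macrophage genes the median r was -0.05 without a letter and 0.79 with one, for mast cell genes -0.26 and 0.62, for mural genes 0.27 and 0.69, for venous genes 0.10 and 0.62, and for melanocyte genes -0.02 and 0.49. Pan-endothelial genes (0.79 and 0.85) and fibroblast genes (0.67 and 0.87) were positive in both.

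The lists of the RPE, retina, nerve, muscle, cornea and blood were read in the same way. RPE genes had a median r of 0.33, with all 10 above 0 and 0 of 10 above 0.5. That median was close to those of the barrier (0.38), mural (0.37) and venous (0.32) lists. Medians were -0.28 for other retina genes, -0.33 for skeletal muscle genes, -0.40 for rod photoreceptor genes and -0.42 for oligodendrocyte genes, which mark the optic nerve. They were -0.51 for corneal epithelium genes and -0.58 for red blood cell genes. The red blood cell list was -0.63 without a letter and 0.17 with one, and the rod list -0.10 and -0.78, so neither kept its value across forms. The 3 Schwann cell genes read here, of nerve sheaths, had a median r of -0.18 (-0.55 without a letter and 0.88 with one) and went in both directions, with Cdh19 at 0.68, Prx at -0.18 and Ncmap at -0.69.

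**Figure D4:**
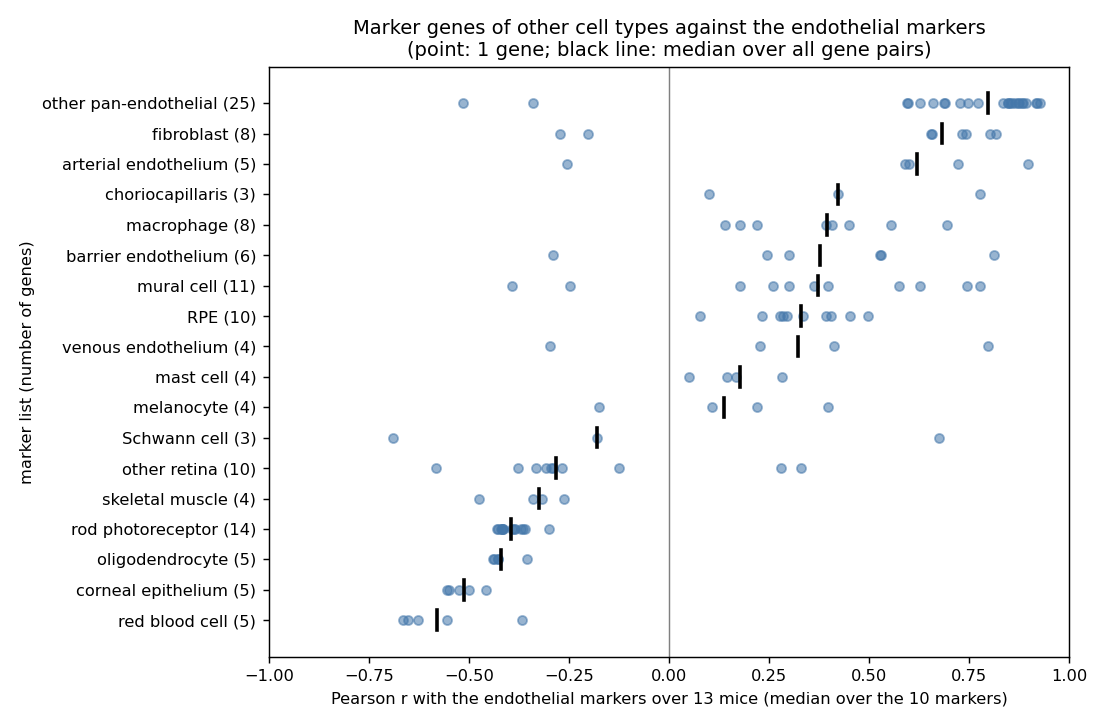
Pearson r over 13 mice with the endothelial marker genes (x axis) for genes of 18 other marker lists (y axis, number of genes in brackets). Each point is 1 gene's median r over the 10 members and each black line the median over all gene pairs of the list, 0.80 for other pan-endothelial genes, 0.68 for fibroblast genes and -0.58 for red blood cell genes.

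The relation was tested with Pecam1 as the member and 1 gene from each of 10 lists, as a family of 10 relations over 13 mice. Dcn, the fibroblast proteoglycan decorin, correlated with Pecam1 (r = 0.82, permutation p = 4.9e-04, adjusted p = 0.0049; rho = 0.85, adjusted p = 0.0045). Pdgfrb, the pericyte receptor, did too (r = 0.79, permutation p = 0.00122, adjusted p = 0.0061; rho = 0.81, adjusted p = 0.00805). By r both held with group means removed (r = 0.87 and 0.81) and without the 2 mice farthest from the Pecam1 median (r = 0.85, adjusted p = 0.0047, and r = 0.73, adjusted p = 0.0405, by permutation), while by rho without those mice Dcn passed (adjusted permutation p = 0.0483) and Pdgfrb did not (0.0672). Within the forms r was 0.77 (exact adjusted p = 0.053) for Dcn and 0.83 (exact adjusted p = 0.0329) for Pdgfrb without a letter, and 0.96 (exact adjusted p = 0.00794) and 0.83 (exact adjusted p = 0.118) with one. By rho the exact adjusted p within the forms lay between 0.0675 and 0.114 for these 2 genes.

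Neither Kdr, the endothelial VEGF receptor (r = 0.56, rho = 0.44, adjusted permutation p = 0.15 and 0.338), nor Rpe65, the RPE isomerase (r = 0.51, rho = 0.52, adjusted permutation p = 0.184 and 0.237), passed. Kdr passed among libraries without a letter (r = 0.82, exact adjusted p = 0.0329; by rho 0.0691) but was at 0.37 among those with one. Csf1r, the macrophage receptor, had r = 0.48 (rho = 0.39, adjusted permutation p = 0.194 and 0.378) and passed once the 2 mice farthest from the Pecam1 median were left out (r = 0.73, adjusted permutation p = 0.0405; by rho 0.0672). Gnat1 of rods was at r = -0.38, Mog of oligodendrocytes at -0.30, Krt12 of cornea at -0.28 and Alas2 of red cells at -0.24. None of these 4 passed (rho -0.36, -0.32, -0.10 and -0.26; lowest adjusted permutation p = 0.337 for r and 0.387 for rho). Pecam1 is only 1 member, and the order was not the same over all 10. There the median r was 0.77 for Kdr, 0.75 for Pdgfrb, 0.66 for Dcn, 0.50 for Rpe65 and 0.41 for Csf1r. It was -0.42 for Gnat1, -0.44 for Mog, -0.55 for Krt12 and -0.56 for Alas2. These medians were not tested.

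Against this spread between eyes, hydroquinone and SUCNR1 genotype gave no detectable change in the members. No member passed an adjusted p of 0.05 in any of 7 comparisons with edgeR's quasi-likelihood test over 15380 genes, none had an unadjusted p below 0.05, and none passed with DESeq2 or with limma and the mouse as a block. At most 0.0845% of all tested genes were called by edgeR in any of these comparisons, so 0 of 10 is not particular to the members. The lack of calls does not show equal levels either. Of the 40 intervals (95%) for comparisons of 2 groups, 38 reach a 1.5-fold change in at least 1 direction.

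In wild type, hydroquinone called 0 of 10 members, beside 0.0065% of all tested genes. Their median log2 fold change was 0.01, with 6 of 10 above 0, while the median over all genes was -0.0002. The member with the lowest estimate was Vwf, which averaged 73.1 ± 20.0 CPM untreated and 64.8 ± 33.5 CPM treated (SD over 4 libraries in each group), a log2 difference of -0.17 (SE 0.40, adjusted p = 0.994 by edgeR). The highest was that of Erg, from 14.7 ± 2.91 to 17.9 ± 5.54 CPM, a log2 difference of 0.28 (SE 0.28, adjusted p = 0.994 by edgeR). Both changes were smaller than the larger SD within the groups. Without wild-type hydroquinone replicate 1, the library with the lowest members, the median was 0.24.

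In the knockout, hydroquinone again called 0 of 10 members (0.0455% of all genes), but the estimates of all 10 lay above 0, with a median log2 fold change of 0.32 against -0.0014 over all genes. They ran from 0.17 for Pecam1 (35.5 ± 16.5 to 40.1 ± 7.73 CPM, SE 0.31) to 0.44 for Cldn5 (26.8 ± 8.59 to 36.4 ± 8.24 CPM, SE 0.27), with an edgeR adjusted p of 0.9999 for both. Members that move together count as few independent values, so 10 of 10 in 1 direction does not stand for 10 separate results. In libraries without a letter, the Pecam1 and Cldn5 values turned to -0.42 and -0.10. The members' median was 0.15 without treated replicate 4, their highest library, and 0.53 without untreated replicate 2. It was -0.25 in libraries without a letter and 0.98 in those with one.

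Averaged over genotype, 0 of 10 members were called (0.0845% of all genes), all 10 estimates lay above 0 and their median was 0.12. Erg had the highest value (0.30, 95% interval -0.12 to 0.73, edgeR adjusted p = 0.914), followed by Plvap at 0.24, Cldn5 at 0.23, Tie1 at 0.22, Pecam1 at 0.13, Vwf at 0.12, Esam at 0.11, Emcn at 0.09, Egfl7 at 0.08 and Cdh5 at 0.05. In the 9 libraries without a letter all 10 values lay below 0, from -0.51 for Vwf to -0.06 for Plvap. The members' mean log2(CPM + 1) there was 5.11 in untreated and 4.91 in treated wild type, and 5.28 and 5.04 in the knockout. Among libraries with a letter it was 5.03 and 5.27 (1 library) in wild type and 4.59 and 5.50 in the knockout. The direction of these means thus differed between the forms. Each other mean rests on 2 libraries, or 3 for treated wild type without a letter. Those 3 ran from 4.13 (replicate 1) to 5.52, across the 4.76 to 5.47 of untreated wild type without a letter.

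Genotype gave the same picture. Between untreated groups 0 of 10 members were called (0% of all genes), 2 of 10 estimates were above 0 and the median was -0.13, from -0.24 for Egfl7 (21.1 ± 4.33 in wild type, 17.9 ± 3.03 CPM in knockout, SE 0.20, edgeR adjusted p = 0.9999) to 0.01 for Esam (SE 0.28). Under hydroquinone 0 of 10 were called (0%), all 10 estimates were above 0 and the median was 0.21, from 0.06 for Erg (SE 0.28) to 0.38 for Vwf (64.8 ± 33.5 in wild type, 84.1 ± 36.3 CPM in knockout, SE 0.40, edgeR adjusted p = 0.9999). Without wild-type hydroquinone replicate 1 this median was -0.03, and the untreated median was 0.06 without wild-type replicate 3 and -0.48 in libraries with a letter. The hydroquinone comparisons share groups with the genotype comparisons, so these medians are not independent of each other.

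Averaged over treatment, 0 of 10 members were called (0%) and the estimates stayed near 0, with Esam at 0.11, Vwf at 0.08, Cldn5 and Cdh5 at 0.07, Plvap at 0.07, Tie1 at 0.04, Erg at 0.03, Pecam1 at 0.02, Emcn at -0.01 and Egfl7 at -0.01 (95% interval of Egfl7 -0.31 to 0.29). The interaction of genotype and hydroquinone called 0 of 10 (0%), with estimates from 0.06 for Erg (SE 0.40) to 0.59 for Vwf (SE 0.57, 95% interval -0.63 to 1.80, edgeR adjusted p = 1). Their median was 0.32, 0.07 without wild-type hydroquinone replicate 1 and -0.18 in libraries without a letter. A difference in the hydroquinone response between the genotypes was thus not detectable for any member.

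**Figure D5:**
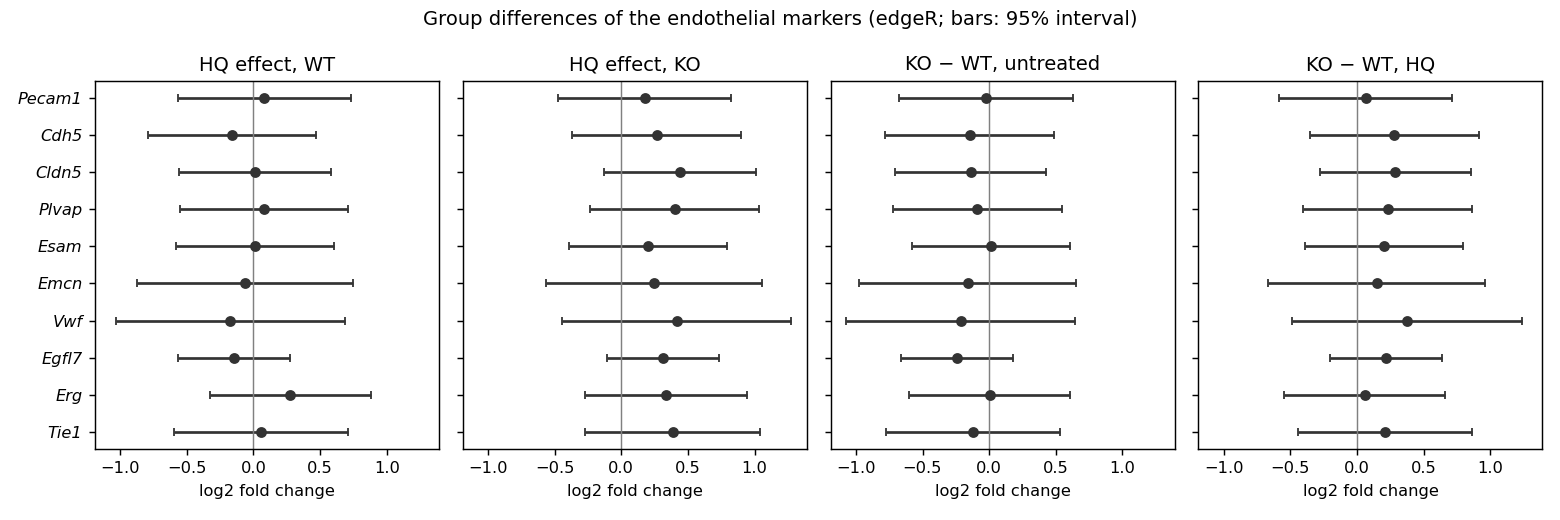
Log2 fold change (x axis; point: edgeR estimate, bar: 95% interval) of each endothelial marker gene (y axis) for hydroquinone in wild type, hydroquinone in knockout, knockout against wild type without hydroquinone, and knockout against wild type with it. All 40 intervals include 0.

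The marker lists set beside the members had no called gene in any of the 7 comparisons either. The 25 further pan-endothelial genes showed a median log2 fold change of -0.06 for hydroquinone in wild type and 0.23 in knockout, where 21 of 25 estimates were above 0. For the 3 choriocapillaris genes, which are low, these medians were -0.80 and 0.23, beside 0.01 and 0.32 for the members. In wild type 2 of those 3 had an unadjusted edgeR p below 0.05 (smallest adjusted p = 0.994). The summed level of rod photoreceptor genes, which ran from 357.1 to 24723 CPM in untreated knockout and from 258.8 to 22502 CPM in treated knockout, also varied within groups. Fibroblast genes summed to 1897 ± 913 CPM in untreated knockout and 2093 ± 523 CPM with hydroquinone, and macrophage genes to 1900 ± 748 and 2603 ± 415 CPM (SD, n = 4 libraries each). The part of these tissues in the members' values was not tested.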

How the data were processed

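RNA from RPE of single eyes was sequenced, and the authors deposited whole-number read counts per Ensembl gene in 1 table of 16 libraries. Its name announces FPKM, but the values are whole and the library totals differ. The submitters' processing notes name STAR, Cufflinks, DESeq2 and mm10, with no roles. The strand setting is not given in the sources used here. Of 51912 identifiers, 51633 matched GENCODE vM21, where Ca4 is listed as Car4. CPM were computed from TMM-scaled totals (factors 0.973 to 1.03). Group differences were tested with edgeR 4.0.16 (quasi-likelihood F test, R 4.3.3) in 1 model of the 4 group means, over the 15380 genes that averaged 1 CPM or more (99.8% of counts), with Benjamini-Hochberg adjustment and a threshold of 0.05. Intervals are 95%. Eyes of a mouse entered as separate libraries. Their consensus correlation beyond the group was -0.02 (limma 3.58.1). Titles number the mice, replicate numbers follow accession order, and p-values measure only the spread between these samples. No 2 libraries of a group were copies (chi-square per degree of freedom at least 20.32). Correlations used log2(CPM + 1) averaged per mouse, with 2-sided permutation p (100000 resamples, exact below 10 mice). Of the 10 relations of Pecam1 tested and adjusted together, 1 is not reported here. Scripts were tested on simulated counts and values. Alternatives were RLE scaling, no filter, DESeq2 1.42.0, other fits and subsets, and the 0.1 CPM pseudocount. The members and lists were chosen with earlier results of these data known. Slco1c1, Spock2, Best1 and Ttr were named after their values were seen. The text names all members, for each comparison of 2 groups and the interaction the members with the lowest and highest log2 fold change, for the averaged comparisons every member, the 6 other genes nearest to the members' mean, and 1 gene or the leading genes of each list; Sox7, Gpihbp1, Dpt, Mfap5, Notch3, Abcc9, Col1a2, Lum, Mfsd2a, Cdh19, Prx and Ncmap were named after their values were seen, as were Slco1a4 and Car4.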

Additional observations from a re-analysis of the deposited data

Results flagged for a closer look

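In 40 sets of 4 libraries (10 members in 4 groups), 2 single libraries stood apart from the others of their group by Dixon's ratio of gap to range, past its 95% critical value, and chance at 5% would give 2. The tight junction gene Cldn5 was at 48.7 CPM in knockout hydroquinone replicate 4 (ratio 0.869), above the other 3 libraries at 31.4 to 33.3 CPM. The secreted factor gene Egfl7 was at 12.65 CPM in wild-type hydroquinone replicate 1 (ratio 0.836), below the other 3 at 20.2 to 22.1 CPM. These are the libraries with the highest and the lowest mean of all 10 members.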

How the results depend on the processing

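Under 147 combinations of comparison and alternative setting no member was called; the lowest of 694 adjusted p-values for named members was 0.115. The median correlation of the members was 0.76 without the 2 mice farthest from the median of each pair's first gene. It was 0.81 to 0.91 in the other settings. No mouse gave libraries to different groups, so the groups could not be paired by mouse. With the mouse as block in limma, 3 genes were called for hydroquinone in wild type. Counts of genes called moved as follows. Hydroquinone in wild type gave 1, and 20 with DESeq2, 4 with the rod score as covariate, 2 with RLE scaling, with only the groups compared or with form as covariate and 0 with only libraries with a letter. Hydroquinone in knockout gave 7, and 14 with DESeq2, 0 with only the groups compared or only libraries with a letter, 4 with the form as covariate, 1 without a letter, 3 with eyes summed and 3 to 11 without 1 library. Averaged over genotype it gave 13, and 39 with DESeq2, 2 without a letter, 0 with a letter, 6 with eyes summed and 7 to 15 without 1 library. Knockout against wild type under hydroquinone gave 0, and 3 with DESeq2. Of the Pecam1 relations, 2 passed, and 1 with only libraries with a letter, a setting added after the data were seen.

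Directions of members turned as follows, all on the log2 scale and none past the threshold; the cause was not tested. Without a letter, hydroquinone in knockout gave -0.42 for Pecam1 and -0.098 for Cldn5. Averaged over genotype the same libraries gave -0.25 for Pecam1, -0.28 for Cdh5, -0.075 for Cldn5, -0.056 for Plvap, -0.15 for Esam, -0.38 for Emcn, -0.51 for Vwf, -0.12 for Egfl7, -0.092 for Erg and -0.11 for Tie1. They gave -0.17 for Erg and -0.14 for Vwf between genotypes under hydroquinone, -0.048 for Vwf between genotypes averaged over treatment, and interactions of -0.55 for Erg and -0.19 for Vwf. With a letter, where treated wild type has 1 library, Vwf was 0.26 for hydroquinone in wild type and Esam -0.18 between untreated genotypes. In the same libraries the averaged genotype difference was -0.52 for Pecam1, -0.044 for Vwf, -0.24 for Erg and -0.099 for Tie1. With the rod score as covariate Esam was -0.030 untreated and Erg -0.14 under hydroquinone, and the averaged genotype difference was -0.076 for Pecam1, -0.017 for Cdh5, -0.032 for Cldn5, -0.017 for Plvap, -0.094 for Vwf, -0.14 for Erg and -0.053 for Tie1. That difference was 0.017 for Emcn and 0.012 for Egfl7 without a filter, 0.0096 for Emcn with the form as covariate, 0.021 and 0.0025 for Emcn and Egfl7 with eyes summed, and -0.0083, 0.050 and 0.0031 for Pecam1, Emcn and Egfl7 with the mouse block.

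Without 1 library, values ranged from -0.49 to 0.094 for Vwf with hydroquinone in wild type and -0.030 to 0.48 for Pecam1 in knockout. Averaged over genotype they ranged from -0.086 to 0.18 for Cdh5, -0.0035 to 0.23 for Esam, -0.039 to 0.25 for Emcn and -0.039 to 0.25 for Vwf. Between genotypes they ranged from -0.087 to 0.15 for Esam untreated and -0.14 to 0.21 for Erg under hydroquinone. Averaged over treatment they ranged from -0.13 to 0.12 for Pecam1, -0.030 to 0.21 for Cdh5, -0.037 to 0.16 for Cldn5, -0.059 to 0.17 for Plvap, -0.014 to 0.22 for Esam, -0.17 to 0.13 for Emcn, -0.065 to 0.24 for Vwf, -0.088 to 0.052 for Egfl7, -0.083 to 0.11 for Erg and -0.080 to 0.17 for Tie1. The Erg interaction ranged from -0.14 to 0.28.

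The r of Pecam1 with Alas2 turned to 0.46 with a letter and 0.32 without the 2 outlying mice, and with Krt12 to 0.078 relative to RPE markers. Every member had 207 counts or more in each library.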
